A study of Mus musculus with 3 samples.

Results

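The genes described here are 10 feedback inhibitors of mitogen-activated protein kinase (MAPK) signaling, namely the dual-specificity phosphatase genes Dusp1, Dusp2, Dusp4, Dusp5, Dusp6, Dusp7 and Dusp10, the Sprouty genes Spry1 and Spry2, and Spred1. They were chosen by name, through the NCBI Gene IDs in the deposited tables, and all 10 were found among the 16742 genes listed in any library. RNA-seq was available from 3 libraries, 1 for each condition, and each was a pool of 3 mice. Control was lin- bone marrow, the fraction depleted of cells with lineage markers, of wild type C57BL/6 mice. TR1 and TR9 were GFP+ bone marrow cells of leukemic TBLR1-RARa mice on the C57BL/6 background, and the labels give 6 to 8 weeks as the age for all groups. According to the methods, TBLR1-RARa (TR) was expressed from an MSCV retrovirus that also carries GFP, and the cells came from the third generation of leukemia mice. Each TR line goes back to 1 primary leukemic mouse, so the pooled animals carry descendants of 1 leukemia. Control and TR cells also differed in how they were isolated, by lineage depletion or by GFP sorting, which cannot be told apart from the effect of TR.

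Growth factor and cytokine receptors activate Ras, which starts the relay of Raf, MEK and ERK kinases, while the p38 and JNK kinases form parallel branches that respond to stress and cytokines. Active MAPKs enter the nucleus and turn on immediate early genes such as Fos and Egr1, and also genes that shut the pathway off. DUSP proteins remove phosphate from both the threonine and the tyrosine that activate a MAPK. Sprouty and Spred proteins act further upstream and limit the activation of Ras or Raf. In marrow, this relay carries the signals of receptors such as Kit and Csf3r, which support progenitors and granulocytes.

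Expected counts summed to between 5129662 and 5571409 per library, so that 3 counts stood for 0.538 to 0.585 CPM (counts scaled to the library total). The fusion partner Rara rose from 58.9 counts (control) to 1168 (TR1) and 359 (TR9), higher in both libraries labelled TR. The other partner, Tbl1xr1, had 854, 1186 and 981 counts and was called in neither (1.36-fold and 1.23-fold higher). The hematopoietic markers, 4 genes, were detected in every library. Levels are given as RSEM counts, which need not be whole, and as FPKM, which is scaled for transcript length and library total, so that FPKM can be set side by side between genes. A gene was called higher or lower when the reads of both libraries differed at a false discovery rate of at most 0.001 in a Poisson test and the log2 ratio of FPKM was at least 1 in size. Such a call compares 2 libraries, not 2 conditions, and no difference given here has a replicate check. Brackets hold 95% exact intervals of the log2 ratio, which cover counting error only. Over all genes, TR1 had a median log2 ratio against control of -0.29 and TR9 one of -0.12, and TMM scaling, which levels the bulk of the genes, subtracts -0.25 from each TR1 ratio and -0.11 from each TR9 ratio.

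Dusp1, Dusp2 and Spry2 were higher in both TR libraries than in control, whereas Spred1 was lower in both. Dusp10 and Spry1 were called lower in TR1, and Dusp4, Dusp5, Dusp6 and Dusp7 were called in neither. In TR1 against control, 3 of the 10 genes were called higher and 3 lower, against a background of 8.09% higher and 13% lower among 16282 genes tested. In TR9 against control, 3 were called higher and 1 lower, against 9.37% and 10.8% of 16303 genes. The 10 genes had a median log2 ratio of -0.41 (TR1) and -0.36 (TR9) against -0.29 and -0.12 over all genes, so that members in both directions lie around a median near that of all genes. Both comparisons use the same control library. In bulk marrow, fewer cells of a type and less RNA per cell cannot be told apart. Of the 10 genes, 8 had at least 10 expected counts in a library of each comparison, and Dusp4 and Dusp5 did not.

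**Figure D1:**
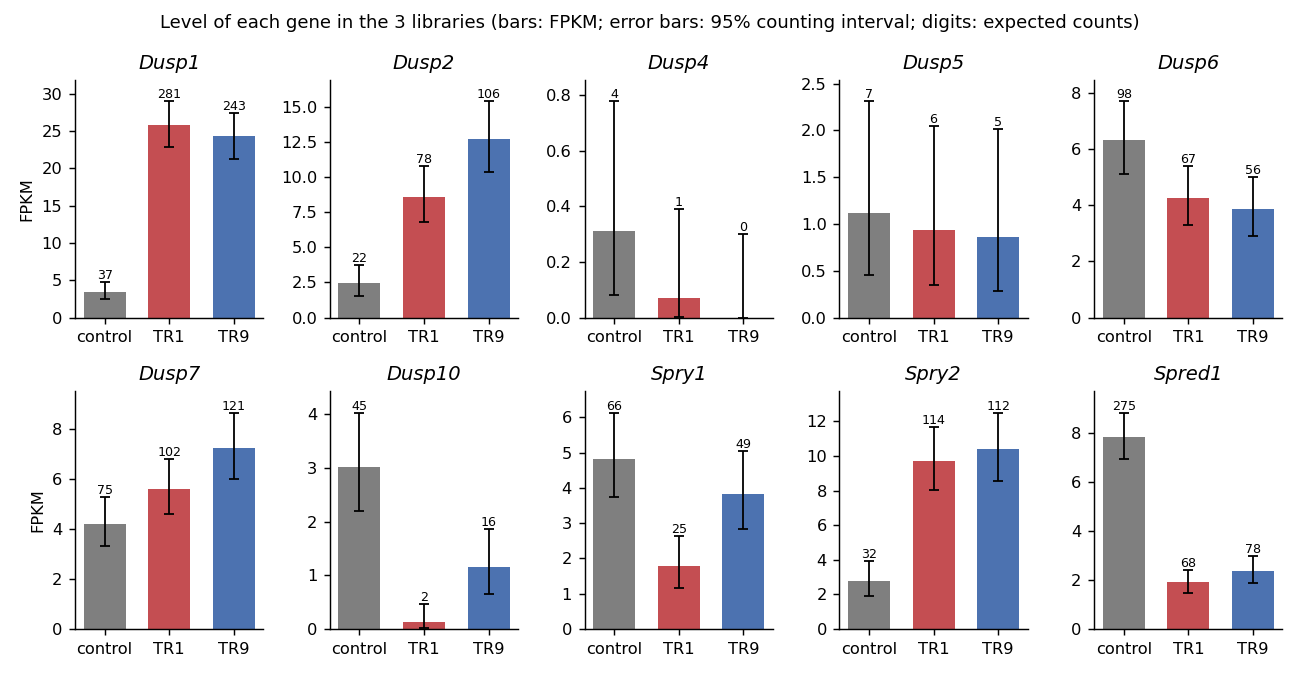
FPKM of each of the 10 genes in the control, TR1 and TR9 libraries, with 1 panel per gene and its own linear axis starting at 0. Error bars are 95% exact Poisson intervals of the expected count on the FPKM scale and the digits are expected counts. Dusp1, Dusp2 and Spry2 stand above control in both TR libraries, and Spred1 stands below control in both.

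Dusp1, Dusp2, Dusp4 and Dusp5 encode nuclear phosphatases whose genes are induced by the MAPKs they act on, so the DNA just upstream of their start sites is shown for those with a sequence, together with that of Spry2, the other gene higher in both TR libraries. Sequences were taken from RefSeq (GRCm38.p6), in which 9 of the 10 genes had an entry. Each runs 5′ to 3′ on the strand of the gene over the 250 bases before the start site. Capitals mark matches, on either strand, to motifs of factors that act below MAPKs or of the retinoic acid receptor. The motifs searched were the CRE octamer TGACGTCA and its short form TGACG, which the octamer contains, the AP-1 site TGANTCA, the ETS site CCGGAAG, the EGR sites GCGTGGGCG and GCGGGGGCG, the receptor half-site AGGTCA, the TATA box TATAAA and the CArG box bound by SRF.
Dusp1 (chr17:26508473-26508722, minus strand): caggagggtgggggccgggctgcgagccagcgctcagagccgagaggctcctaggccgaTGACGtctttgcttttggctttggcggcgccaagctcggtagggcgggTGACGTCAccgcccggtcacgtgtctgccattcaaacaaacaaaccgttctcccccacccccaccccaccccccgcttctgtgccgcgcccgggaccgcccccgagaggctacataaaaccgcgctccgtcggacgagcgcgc
Dusp2 (chr2:127335909-127336158, plus strand): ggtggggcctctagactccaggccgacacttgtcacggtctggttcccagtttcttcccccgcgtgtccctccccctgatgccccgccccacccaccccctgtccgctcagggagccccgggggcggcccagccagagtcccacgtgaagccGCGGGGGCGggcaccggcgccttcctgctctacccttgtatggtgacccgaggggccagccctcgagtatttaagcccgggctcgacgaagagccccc
Dusp5 (chr19:53528895-53529144, plus strand): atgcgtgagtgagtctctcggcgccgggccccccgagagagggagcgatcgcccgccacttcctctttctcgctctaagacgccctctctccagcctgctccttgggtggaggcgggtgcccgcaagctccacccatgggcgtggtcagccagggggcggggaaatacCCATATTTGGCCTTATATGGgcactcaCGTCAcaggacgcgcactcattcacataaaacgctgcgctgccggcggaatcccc
Spry2 (chr14:105896820-105897069, minus strand): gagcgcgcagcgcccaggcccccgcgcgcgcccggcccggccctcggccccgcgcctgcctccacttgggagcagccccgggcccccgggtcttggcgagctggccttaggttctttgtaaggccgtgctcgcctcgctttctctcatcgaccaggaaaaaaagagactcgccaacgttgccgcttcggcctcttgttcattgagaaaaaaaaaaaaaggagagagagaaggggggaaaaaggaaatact

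Counting the base before the start as -1, Dusp1 held the CRE octamer at -143 to -136 and a further short form at -191 to -187. Of 32851 upstream sequences of this length, 1.55% held the octamer and 17.8% the short form. Dusp2 held an EGR site at -98 to -90, a motif present in 3.06% of the upstream sequences. Dusp5 held 2 neighboring CArG boxes, at -82 to -73 and at -72 to -63, and a short CRE form at -55 to -51, and 1.47% of the sequences held a CArG box. None of the searched letters was found in the 250 bases of Spry2. Across the 9 genes with a sequence, the AP-1 site (6.75% of all sequences), the ETS site (6.91%), the receptor half-site (14.0%) and the TATA box (12.4%) were each found in 0. A match in this window describes letters only.

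Among the nuclear phosphatases, Dusp1, which acts on p38, JNK and ERK, rose from 36.9 counts in control to 281 in TR1 and 243 in TR9. In FPKM these were 3.45, 25.8 and 24.3, and the counting intervals of control (2.43 to 4.77) and both TR libraries (22.9 to 29.0 and 21.3 to 27.5) did not overlap. Dusp1 was 7.49-fold higher in TR1 (log2 ratio 2.90, 2.41 to 3.44) and 7.04-fold higher in TR9 (log2 ratio 2.82, 2.31 to 3.35). Its control count was not whole, which RSEM, the authors' counting tool, gives when it divides reads between genes. Dusp2, a phosphatase of immune cells, had 22, 78 and 106 counts and an FPKM of 2.47, 8.62 and 12.7. It was 3.49-fold higher in TR1 (log2 ratio 1.80, 1.11 to 2.56) and 5.16-fold higher in TR9 (log2 ratio 2.37, 1.69 to 3.10).

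The other nuclear members were scarce in all 3 libraries. Dusp4, which acts on ERK and JNK, had 4.08 control counts against 1 in TR1 and 0 in TR9, and its FPKM of 0.31 in control was the lowest of the 10 genes there. Dusp5, which binds ERK in the nucleus, had 7, 6 and 5 counts, or 1.12, 0.94 and 0.86 FPKM. At this depth neither gene could show a 2-fold difference, and the interval of the Dusp5 log2 ratio ran from -2.09 to 1.55 in TR1 and from -2.39 to 1.48 in TR9.

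Dusp6 and Dusp7 encode phosphatases that hold ERK in the cytoplasm, and the values of both lay within 2-fold of control. Dusp6, often read as a gauge of ERK activity, had 98 (control), 67 (TR1) and 56 (TR9) counts, or 6.32, 4.25 and 3.86 FPKM. Its log2 ratio was -0.57 in TR1 (-1.04 to -0.11) and -0.71 in TR9 (-1.21 to -0.22), on the other side of 0 from those of Dusp1 and Dusp2. TMM scaling brought the Dusp6 ratios nearer to no difference, at -0.32 (TR1) and -0.60 (TR9). The upper end of the unscaled TR1 interval, -0.11, is smaller in size than the TMM shift of -0.25. Dusp7 had 75, 102 and 121 counts, or 4.21, 5.63 and 7.26 FPKM. Its log2 ratio was 0.42 in TR1 (-0.02 to 0.87) and 0.79 in TR9 (0.36 to 1.22). With TMM scaling the Dusp7 ratios were 0.67 and 0.89. Neither gene was called in either comparison.

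Dusp10 encodes a phosphatase that prefers JNK and p38 to ERK. Its 45 counts in control compared with 2 for TR1 and 16 for TR9, or 3.01, 0.13 and 1.15 FPKM. The intervals of FPKM in control (2.20 to 4.03), TR9 (0.657 to 1.87) and TR1 (0.0157 to 0.470) did not overlap each other. In TR1 the gene was called lower at a log2 ratio of -4.53 (-7.60 to -2.58), which rests on 2 counts. In TR9 its log2 ratio of -1.39 (-2.32 to -0.54) was not called at a false discovery rate of 0.001 but was called at 0.05.

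The Sprouty and Spred genes differed in direction. Spry2, an inhibitor of Ras and ERK activation below receptor tyrosine kinases, rose from 32 counts in control to 114 in TR1 and 112 in TR9, or 2.77, 9.71 and 10.4 FPKM. It was 3.51-fold higher in TR1 (log2 ratio 1.81, 1.24 to 2.43) and 3.75-fold higher in TR9 (log2 ratio 1.91, 1.33 to 2.52). Its paralog Spry1 had 66, 25 and 49 counts, or 4.82, 1.79 and 3.82 FPKM. Spry1 was 2.69-fold lower in TR1 (log2 ratio -1.43, -2.15 to -0.74). This call was lost with TMM scaling, where the log2 ratio was -1.18. It was also lost in edgeR's exact test with an assumed coefficient of variation of 0.2, even at a false discovery rate of 0.05. In TR9 the Spry1 log2 ratio was -0.34 (-0.90 to 0.22).

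Spred1, which brings the Ras-inactivating protein neurofibromin to the membrane, fell from 275 counts in control to 68 in TR1 and 78 in TR9. In FPKM these were 7.85, 1.91 and 2.38, and the control interval of 6.95 to 8.83 lay above those of both TR libraries. Relative to control, Spred1 was lower 4.11-fold in TR1 (log2 ratio -2.04, -2.44 to -1.65) and 3.30-fold in TR9 (log2 ratio -1.72, -2.10 to -1.35). With TMM scaling the log2 ratios were -1.79 and -1.61, and both calls were kept.

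**Figure D2:**
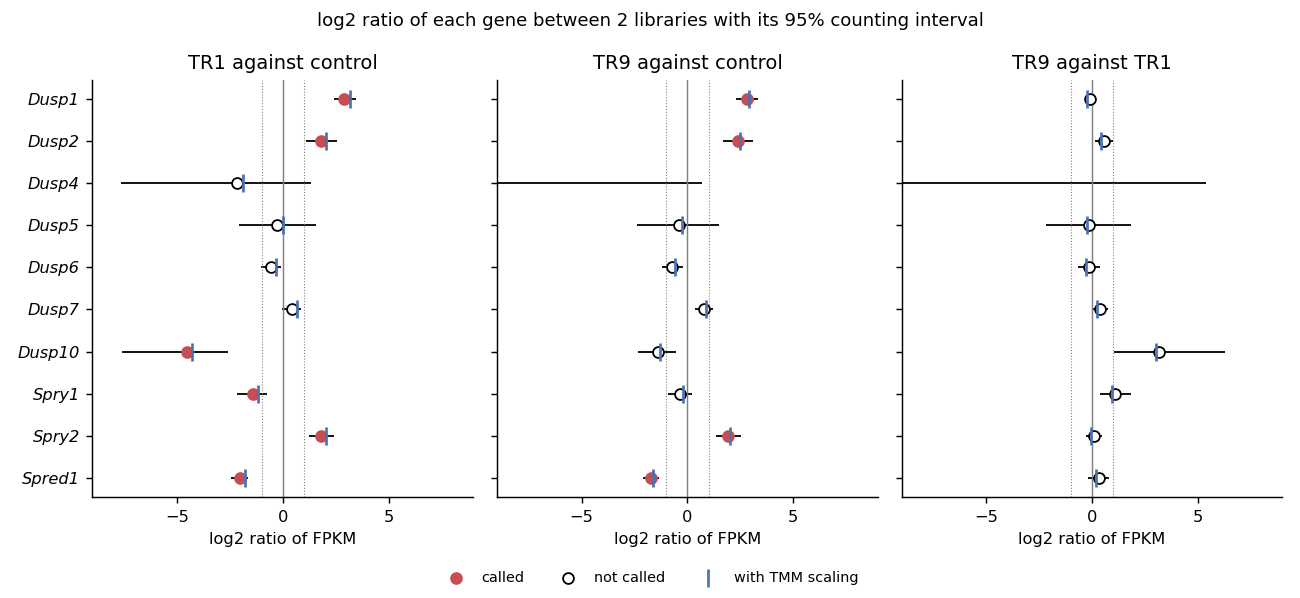
log2 ratio of FPKM for the 10 genes in TR1 against control, TR9 against control and TR9 against TR1, with lines for 95% counting intervals, filled points for called genes, open points for genes not called and blue ticks for TMM scaling. Dotted lines mark a 2-fold difference, and for Dusp4 in TR9, with 0 counts, only the interval is drawn and it runs off the axis. Dusp1, Dusp2 and Spry2 are called on the right in both left panels, and no gene is called in the right panel.

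The order of the levels in control was Spred1, Dusp6, Spry1, Dusp7, Dusp1, Dusp10, Spry2, Dusp2, Dusp5 and Dusp4, from 7.85 down to 0.31 FPKM. The counting intervals of all 9 pairs of neighbors in this order overlapped. In both TR libraries Dusp1 came first with an interval above that of the next gene, which was Spry2 in TR1 and Dusp2 in TR9. Of the 9 neighboring pairs, 7 had overlapping intervals in TR1 and 6 in TR9. Spred1, first in control, was at rank 6 in TR1 and rank 7 in TR9.

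The FPKM of the 10 genes summed to 36.3 for control, 58.9 for TR1 and 66.7 for TR9. Dusp1 made up 9.50% of the sum of control, 43.9% of TR1 and 36.4% of TR9. The share of Spred1 was 21.6%, 3.24% and 3.57%, and that of Dusp6 was 17.4%, 7.22% and 5.78%. The 7 DUSP genes together held 57.5% of the sum in control, 77.2% in TR1 and 75.2% in TR9. In control the sum was spread over several members, and in both TR libraries Dusp1 led it.

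**Figure D3:**
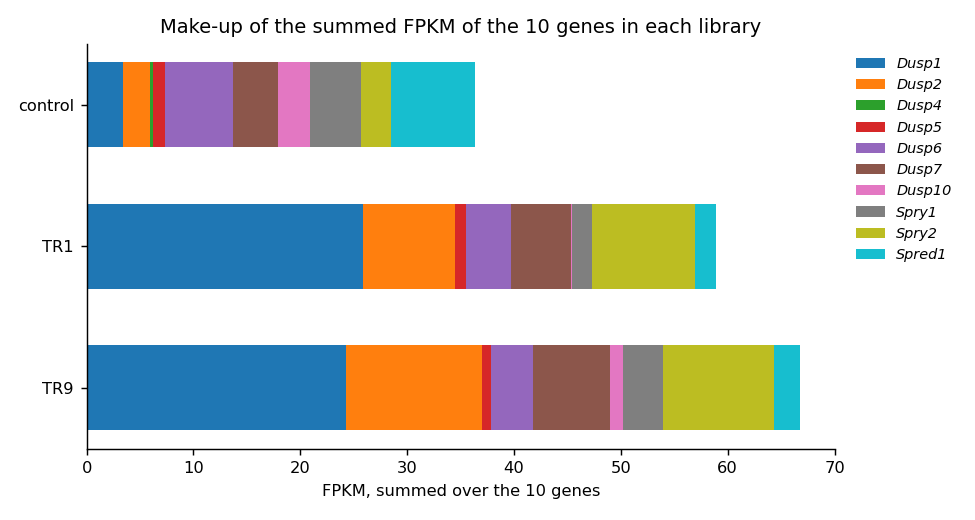
FPKM of the 10 genes stacked to their sum, with 1 bar per library and 1 color per gene. The Dusp1 segment grows from 3.45 FPKM in control to 25.8 in TR1 and 24.3 in TR9, while the Spred1 segment shrinks from 7.85 to 1.91 and 2.38.

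Compared directly, none of the 10 genes was called between TR9 and TR1, where 4.34% of 15706 genes were called higher and 2.31% lower in TR9. The 95% counting interval excluded 0 for 3 genes, all with a higher value in TR9, where the median over all genes was 0.13. The share of all genes with such an interval was not counted. Dusp10, at 16 counts against 2, had a log2 ratio of 3.15 (1.03 to 6.28), Spry1, at 49 against 25, one of 1.09 (0.37 to 1.85), and Dusp2, at 106 against 78, one of 0.56 (0.13 to 1.0). Dusp10 and Spry1 passed the fold threshold and were called at a false discovery rate of 0.05, where 1446 of all 15706 genes were called. Under TMM scaling the Spry1 log2 ratio was 0.96, below that threshold, and the edgeR test called neither gene. The Dusp2 ratio went to 0.43, and the lower end of its unscaled interval, 0.126, lies below the TMM shift of 0.132. For Dusp1 the log2 ratio was -0.09 (-0.34 to 0.16) and for Spry2 0.10 (-0.30 to 0.48), and both intervals exclude a 2-fold difference between these TR libraries.

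Among the remaining genes of the same families, Dusp16 and Spry4 were lower in both TR libraries. Dusp16, which like Dusp10 encodes a phosphatase of JNK and p38, fell from 108 counts in control to 6 in TR1 and 2 in TR9. Its log2 ratio was -4.20 (-5.67 to -3.02) in TR1 and -5.43 (-8.72 to -3.77) in TR9. Of the 3 other MAPK phosphatase genes, Dusp16 alone was called, and the other two had at most 7 counts in any library. Spry4, with 14 control counts, had 0 in either TR library, a value at least 4.74-fold lower for TR1 and at least 4.36-fold lower for TR9. Of the 4 other Sprouty and Spred genes, 3 were listed in a library. Spred3, with 19 counts in control and 2 in TR1, was called lower there with a log2 ratio of -3.22 (-6.42 to -1.22). Spred2, with 183 counts in control and 83 in TR9, was called lower there with a log2 ratio of -1.04 (-1.44 to -0.66). Neither of these last calls was kept with TMM scaling.

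Atypical dual-specificity phosphatases, which lack the docking domain of the MAPK phosphatases, formed a list of 11 genes. Of 10 tested in TR1, 3 were called lower and 0 higher, and of 9 tested in TR9, 1 was called lower and 1 higher. Dusp3, one that can act on ERK and JNK, fell from 154.8 counts to 9.04 (TR1) and 13.7 (TR9), with log2 ratios of -4.13 and -3.40. Dusp22 had 18.2, 0 and 2.15 counts, so TR1 was at least 6.15-fold lower. Dusp18 had 8.17, 9.50 and 69.0 counts and was 9.0-fold higher in TR9 than in control. Dusp18 and Dusp23 were higher in TR9 than in TR1, with log2 ratios of 3.00 and 1.54.

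The wider pathway was described with lists of genes at each step from receptor to nucleus. The totals that follow, and the term pathway genes below, cover more than these steps. They also take in the other family genes, the atypical phosphatases and the cell handling stress genes described below. Of 129 genes of this wider set tested in TR1 against control, 21 were called higher and 23 lower, with a median log2 ratio of -0.07. Of 128 in TR9, 27 were called higher and 19 lower, with a median of 0.06. Growth factor and cytokine receptors, 16 genes, gave 4 higher and 6 lower in TR1 and 4 higher and 7 lower in TR9. Csf3r, the receptor of granulocyte colony-stimulating factor, rose from 401 counts in control to 3745 in TR1 and 1931 in TR9, which is 9.0-fold and 4.99-fold higher. Csf2rb, the shared beta chain of the GM-CSF and IL-3 receptors, was 4.91-fold higher in TR1. In TR9 it stood at 1.56-fold of control, not called, and it was 3.16-fold lower than in TR1. Epor, the receptor of erythropoietin, had 316 counts in control and 0 in TR1, a value at least 107-fold lower. In TR9 it had 1 count, with a log2 ratio of -8.17 (-13.51 to -5.72).

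Adaptors and Ras exchange factors, 15 genes, gave 1 higher and 3 lower in TR1 and 1 higher and 1 lower in TR9. With TMM scaling these counts were 2 higher and 0 lower in each. Of 6 Ras GTPase genes, 2 were called lower in each TR library, Rras2 and Mras, both at no more than 28 counts, and with TMM scaling 0 were called in TR1 and 2 in TR9. Among 9 Ras GTPase-activating proteins tested, which switch Ras off, 2 were higher and 2 lower in TR1, and 2 higher and 1 lower in TR9. Rasa4, the most lowered of these, fell from 225 counts to 6 (TR1) and 31 (TR9), with log2 ratios of -5.18 and -2.77.

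None of the 11 genes of the Raf, MEK and ERK relay itself was called in any comparison, and their log2 ratios had a median of -0.29 (TR1) and 0.05 (TR9). In the p38 and JNK branches, 13 genes, 2 were higher and 1 lower in TR1 and 2 higher and 2 lower in TR9. Mapk13, which encodes p38 delta, rose from 5 counts to 294 (TR1) and 83 (TR9), with log2 ratios of 5.86 and 4.16. Map3k8, a kinase that activates MEK below inflammatory receptors, had 5, 75 and 40 counts, with log2 ratios of 3.89 and 3.11. Mapk9, which encodes a JNK, had 839, 227 and 296 counts and was 3.76-fold and 2.65-fold lower. Of 10 kinases downstream of ERK and p38, 1 was called higher and 1 lower in TR1, and 4 higher and 1 lower in TR9. With TMM scaling these counts were 4 and 1 in each. The ribosomal S6 kinase gene Rps6ka2 was higher in both, at 504 and 421 counts against 142.

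**Figure D4:**
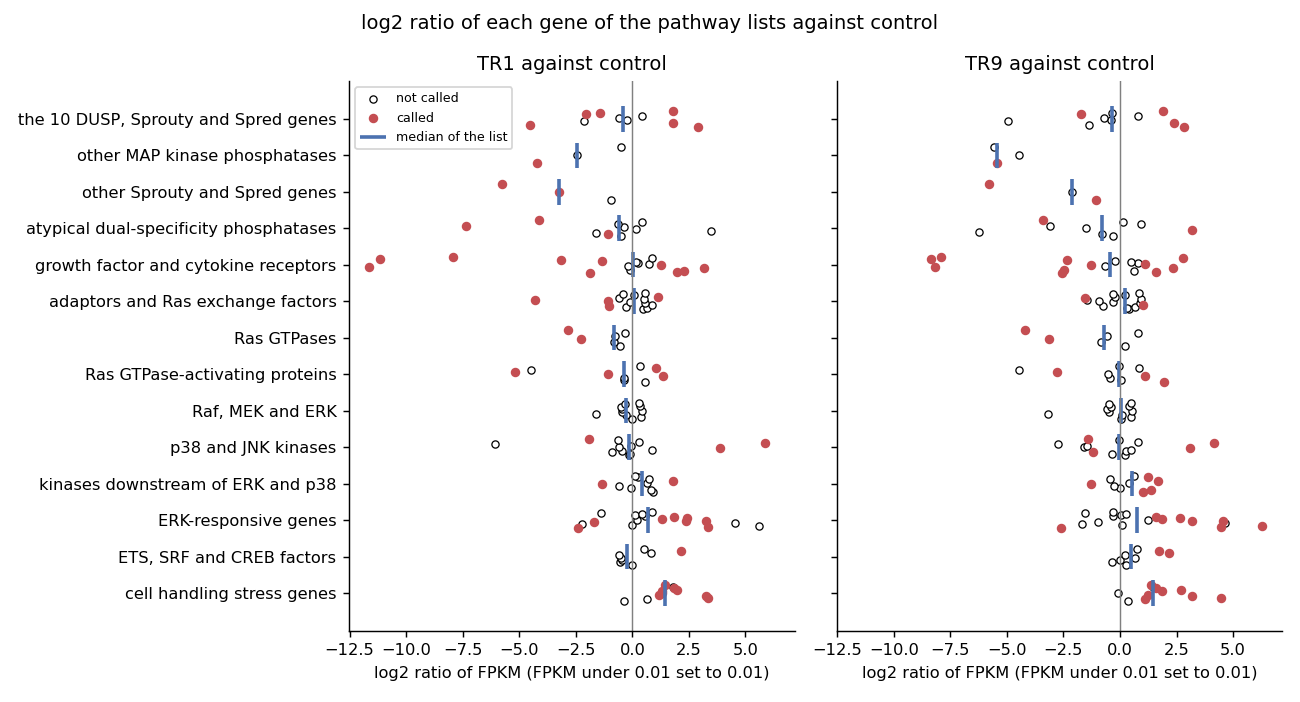
log2 ratio of FPKM of each gene in the pathway lists in TR1 and in TR9 against control, with red points for called genes, open points for genes not called and a blue line at the median of each list. FPKM under 0.01 was set to 0.01, so points farthest to the left or right include genes with 0 counts in 1 library. Genes of the Raf, MEK and ERK list are all open, and the ERK-responsive list has a median of 0.70 in TR1 and 0.74 in TR9.

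ERK-responsive genes, which like the DUSP and Sprouty genes are switched on when ERK is active, gave 6 higher and 2 lower of 18 in TR1 and 7 higher and 1 lower in TR9. Egr1, an immediate early transcription factor, rose from 66 counts to 693 (TR1) and 1364 (TR9), with log2 ratios of 3.37 (3.00 to 3.76) and 4.46 (4.11 to 4.85). Fos had 42, 405 and 351 counts and log2 ratios of 3.25 and 3.16. Ccnd1, the cyclin of early cell cycle entry, was lower in both, with 119, 23 and 18 counts. The ETS factor Etv5 was lower in TR1, at 23 counts against 72. The median log2 ratio of the list was 0.70 in TR1 and 0.74 in TR9, and it moved to 0.35 and 0.29 with a pseudocount of 1 FPKM and to 1.07 and 1.22 over genes with at least 1 FPKM. Both directions were found in this list, as among the 10 feedback genes. Its median lay above the all-gene medians of -0.29 (TR1) and -0.12 (TR9), unlike that of the 10 genes. Of 8 genes for ETS, SRF and CREB factors, which bind sites of the kind searched above, 1 was higher and 0 lower in TR1 and 2 higher and 0 lower in TR9. Ets2 was higher in both, with 92, 410 and 282 counts.

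Some of these early genes, and Dusp1 with them, also rise when living cells are handled, so a list of 11 such stress genes was set beside them. It shares Egr1, Fos, Junb and Ier2 with the ERK-responsive list. Of the 11 genes, 8 were called higher and 0 lower in each TR library against control, and their log2 ratios had medians of 1.46 (TR1) and 1.44 (TR9). Between TR9 and TR1, 1 was higher and 1 lower. TR cells were sorted and control cells were lineage depleted, and the part of cell handling in the levels of Dusp1, Dusp2 and Spry2 was not tested.

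The libraries also differed in their marker genes. Summed over 5 promyelocyte markers, control held 7690 CPM, TR1 32300 and TR9 27800, and 5 and 4 of the markers were called higher. The 7 late granulocyte markers were all higher in both, with sums of 50.1, 10800 and 6170. The erythroid sum fell from 2750 to 180 (TR1) and 152 (TR9), with 7 of 7 markers lower in each and 1 at 0 in each. That of megakaryocytes and platelets was 1090, 8.12 and 4.42, with 6 of 6 lower in each, 4 at 0 in TR1 and 2 at 0 in TR9. Mast cell and basophil markers gave 1270, 86.7 and 91.0, with 6 of 6 lower. Marrow stroma markers gave 2460, 36.2 and 43.6, with 5 of 6 lower in each and 1 higher in TR1. Lepr held 18.6 of the TR1 stroma sum. Stem and multipotent progenitor markers summed to 345, 158 and 47.8, with 5 of 7 lower in TR1 and 4 of 7 in TR9. Of the TR1 sum, Flt3, the 1 marker of this list called higher there, held 142. The monocyte and macrophage sum of 654, 2270 and 1270 was carried by F13a1, and 4 of the 7 markers were lower in TR1 and 5 in TR9. Dendritic markers summed to 258, 151 and 152, and Flt3 held 142 of this sum in TR1 and Irf8 126 in TR9, with median log2 ratios over the list of -4.79 (TR1) and -1.28 (TR9). T and NK markers summed to 80.7, 157 and 125, of which Nkg7 held 75.1, 154 and 122, and the list had median log2 ratios of -0.89 and -1.79. B lineage markers summed to 16.2, 2.51 and 4.09, of which Vpreb1 held 2.51 in TR1 and 3.90 in TR9. Of 6 B lineage markers tested, 1 was called lower in each TR library and 1 higher in TR9. The hematopoietic markers summed to 973, 1170 and 1080. The higher level of Dusp1, Dusp2 and Spry2 and the lower level of Spred1 went with these marker sums in both TR libraries, and the part of cell makeup in them was not tested. The counts of Dusp10 (16 against 2) and Spry1 (49 against 25) were higher in TR9 than in TR1, though neither gene was called. The part of cell makeup in these values was not tested either.

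For each of the 8 genes with at least 20 counts in a library, the nearest of 107 pathway genes was found by the distance between their pairs of log2 ratios against control, over 3 libraries. Dusp1 was nearest to Fos, at a distance of 0.485 on the log2 scale, and Dusp2 to Jun, at 0.373. Fos is on both the ERK-responsive and the cell handling lists, and Jun is on the cell handling list only. Spry1 was nearest to Kit, the receptor of stem cell factor, at 0.139, and both had their lowest value in TR1. Spry2 was nearest to Rps6ka2 at 0.241, Spred1 to Mapk9 at 0.339, Dusp6 to Map2k2 at 0.184 and Dusp7 to Mapk14 at 0.103. The nearest gene to Dusp10, Rasa4, stood apart from it by 1.53. With 3 libraries, such distances describe 2 values per gene only.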

How the data were processed

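Total RNA of 3 mouse bone marrow libraries was sequenced, and per the file headers the authors deposited, for each gene and library, an RSEM expected count and an FPKM value. In FPKM, the deposited count is divided by transcript length and by the library total. The submitters' processing notes name BWA, Bowtie, RSEM and mm9, and versions are not given in the sources used here. A symbol was found for 16698 of the 16742 gene IDs, and a gene absent from a table was taken as 0. RSEM values, of which about 20% were not whole, were rounded for the tests.

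Each pair of libraries was compared across all genes by a conditional exact Poisson test on the counts, written with scipy 1.17.1, with Benjamini-Hochberg adjustment over all genes. Calls needed a log2 FPKM ratio of at least 1 in size and a false discovery rate no higher than 0.001, thresholds taken from the study's methods. FPKM under 0.01 was set to 0.01, a floor chosen here. Intervals are 95% Clopper-Pearson intervals of the counts and cover counting error only, since reads without molecular identifiers are not independent molecules. Folds against 0 counts are lower bounds against 3 counts per library. TMM factors and an exact test with an assumed coefficient of variation of 0.2 came from edgeR 4.0.16. Calls by that test used a false discovery rate of 0.05 and the same fold threshold. The test was checked on simulated Poisson counts, which is the model it assumes, so the check cannot speak to spread between mice or libraries.

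The 10 genes and all lists were chosen with earlier results of these data known. All 10 genes are named, and from each list the 2 genes called with the largest ratio in each direction, and those called between TR9 and TR1, could be named. Promoters are RefSeq sequences of GRCm38.p6, and no coordinate of the deposited files was used. Alternatives were 4 scalings, another FPKM floor, a pseudocount of 1 FPKM, 2 filters on low values, 3 call rules and the edgeR test.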

Additional observations from a re-analysis of the deposited data

How the results depend on the processing

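No paired analysis was possible because each condition has 1 library, and for the same reason no library could be left out. Over 12 alternatives, 329 of 350 values of the 10 genes kept their direction and call, 7 lost a call, 10 gained one and 4 changed sign. Only the 4 scalings, the pseudocount and, for genes with 0 counts, the FPKM floor alter a ratio. The filters, the call rules and the edgeR test reuse the same ratio, so they could change a call but not a direction. The sign changes were all between TR9 and TR1 and near 0. Spry2 went to -0.0361 with TMM, -0.0229 with median of ratios and -0.00889 with upper quartile scaling, and Dusp1 to 0.0276 with TPM scaling. The median of the ERK-responsive genes there went to -0.0188 with TMM, -0.00557 with median of ratios and -0.0593 with at least 1 FPKM. Spry1 lost its call in TR1 with TMM scaling and in the edgeR test. Dusp10 was called in TR9 against control with TPM scaling. Calls by the rule used numbered 3437 genes in TR1 and 3293 in TR9 against control and 1044 between TR9 and TR1. These calls held 6, 4 and 0 of the 10 genes and 44, 46 and 17 pathway genes, cell handling stress genes included. A looser or stricter rule changes these by construction. With the fold alone, 7097 genes passed in TR1 and 6959 in TR9 against control, and 4421 between TR9 and TR1, where 3 of the 10 genes and 36 pathway genes passed. At a false discovery rate of 0.05, 2 of the 10 genes were called between TR9 and TR1, and 1446 of all 15706 genes tested. With a log2 ratio of at least 2, 1818, 1665 and 418 genes were called, with 3 and 2 of the 10 genes against control and 23, 25 and 5 pathway genes. The edgeR test, at a false discovery rate of 0.05, called 645 genes and 9 pathway genes between TR9 and TR1. It adds an assumed spread beyond counting error, so its counts also differ from those of the Poisson test by construction. Scaling shifted the balance of calls in TR1 against control, of which 61.7% were lower with FPKM, 48.4% with TMM (1694 higher, 1591 lower), 49.3% with median of ratios, 50.4% with upper quartile and 73.3% with TPM scaling. At this depth, genes such as Dusp4 and Dusp5, with 7 counts or fewer, cannot show a 2-fold difference.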
